A study of Mus musculus with 12 samples.

Results

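The genes described here are the transcriptional activators of the circadian clock and genes that are reported to peak with them in liver, Arntl, Clock, Npas2, Cry1, Nfil3 and Rora. They were listed by name, and a gene was taken as measured where the platform annotation gave a probe set to that gene alone. By this rule 5 of the 6 genes were measured, each by 1 probe set, among 34760 probe sets and 19937 genes with such a probe set. Npas2 was not analysed here. The members were chosen by earlier results of these arrays, namely the difference between WT mice conceived by in vitro fertilization (IVF) and WT mice conceived by natural mating. That difference is therefore given as a description, with no test.

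The study asked whether the transcription factor ATF7 takes part in the changes that IVF leaves in the mouse liver. RNA from whole livers of male offspring was run on 12 arrays of the type Mouse Gene 1.0 ST (Affymetrix), 1 per mouse, with 3 mice for each combination of genotype (WT or Atf7-/-) and conception (natural mating or IVF). All mice had the C57BL6/JJmsSlc background, and the Atf7-/- mice came from parents of that same genotype. Egg donors for IVF were superovulated, and the embryos were cultured to the 2-cell stage and carried to term by ICR recipients, so that fertilization, culture and recipient mother changed together between the natural mating and IVF groups. The sample records give an age of 4 weeks, while the article gives an age that is a week younger. The 3 mice of a group were born to different mothers or recipients, and neither source used here states the hour of day at which the livers were taken.

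The circadian clock is a feedback loop of transcription and translation. BMAL1, the product of Arntl, pairs with CLOCK or its relative NPAS2 and binds E-boxes to switch on the Per and Cry genes, the REV-ERB genes Nr1d1 and Nr1d2, and output genes such as Dbp. PER and CRY proteins then repress their own activators. In a second loop, REV-ERB repressors and ROR activators compete for ROR response elements (RORE), which makes Arntl, Cry1 and Nfil3 peak when REV-ERB is low, so that these transcripts run in antiphase to Dbp in liver. Nfil3 encodes a repressor of the D-box genes that DBP activates, and Rora encodes the nuclear receptor RORα, an activator of Arntl. The arrays hold no time series, so phase itself was not measured.

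Promoter windows of 300 bases around RefSeq start sites (assembly GRCm38.p6, 250 bases before and 50 bases from the start site on) were searched on both strands for the RORE forms ANTAGGTCA and ANTAGGTNA, the second of which includes the first and was written after the windows were seen, for the E-box CACGTG, the D-box TTATGNAA and the cyclic AMP response element TGACGTCA, the palindrome that ATF family factors bind. All 6 genes had a window, 9 in all. Matches lay in 4 windows, 2 of them overlapping windows of Arntl. For each gene with a match 1 window is shown, for Arntl the one that held both RORE forms, with the matched bases in capitals.

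Arntl, chr7:113207261-113207560, strand +: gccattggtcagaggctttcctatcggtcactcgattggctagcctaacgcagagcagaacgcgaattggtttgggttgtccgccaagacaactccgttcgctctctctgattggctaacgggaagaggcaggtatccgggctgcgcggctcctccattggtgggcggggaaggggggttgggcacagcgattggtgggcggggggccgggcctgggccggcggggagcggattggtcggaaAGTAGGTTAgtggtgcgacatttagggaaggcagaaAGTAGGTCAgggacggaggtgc
Nfil3, chr13:52980990-52981289, strand -: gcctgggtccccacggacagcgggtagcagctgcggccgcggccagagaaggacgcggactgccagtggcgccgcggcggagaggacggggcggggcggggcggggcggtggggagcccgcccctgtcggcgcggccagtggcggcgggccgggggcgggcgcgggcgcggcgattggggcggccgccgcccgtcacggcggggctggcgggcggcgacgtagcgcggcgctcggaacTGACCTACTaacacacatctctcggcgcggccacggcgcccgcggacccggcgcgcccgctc
Cry1, chr10:85185005-85185304, strand -: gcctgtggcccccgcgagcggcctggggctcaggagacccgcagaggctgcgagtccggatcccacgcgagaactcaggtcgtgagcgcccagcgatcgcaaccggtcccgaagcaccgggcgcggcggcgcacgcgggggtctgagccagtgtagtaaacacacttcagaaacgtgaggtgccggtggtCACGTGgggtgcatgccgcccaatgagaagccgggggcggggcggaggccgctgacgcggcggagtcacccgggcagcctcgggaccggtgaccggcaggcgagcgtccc

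The Arntl and Nfil3 windows held the same 9 bases, AGTAGGTCA, at positions 29 to 37 of Arntl (the start site counted as 1) and on the opposite strand at positions -12 to -4 of Nfil3. The Arntl window also held the looser form, AGTAGGTTA, at positions -8 to 1, and a window of its other start site, which overlaps the one shown, held that form alone. The strict form was found in 0.661% and the looser form in 2.04% of 32851 windows. The Cry1 window held CACGTG at positions -60 to -55, as did 7.15% of all windows. The D-box form, present in 3.38% of all windows, and the cyclic AMP response element, present in 1.79%, were in none of the 9 windows, and the windows of Clock, Npas2 and Rora held none of the forms searched. A match is a run of letters, and its use in liver was not measured.

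As a check of the labels, Atf7 probe set 10433032 had log2 values from 8.58 to 8.94 (natural mating) and from 7.56 to 8.38 (IVF) in WT mice, and from 5.82 to 6.11 (natural mating) and from 5.34 to 5.68 (IVF) in Atf7-/- mice. Every Atf7-/- array thus lay below every WT array. The second Atf7 probe set, 10433034, had 8.61 to 8.72 in Atf7-/- natural mating against 8.87 to 9.27 in WT natural mating, and where either lies in the gene was not analysed here. The array medians were within 6.22 to 6.34. The 7 measured hepatocyte markers had a mean log2 value of 12.87 to 13.03 on every array, although 1 of them, the liver transcription factor gene Hnf4a, was itself called higher with ATF7 loss in natural mating (0.68, SE 0.12, adjusted p = 0.0039) and lower with IVF in Atf7-/- mice (-0.76, SE 0.12, adjusted p = 0.00252). The first of these calls ended without WT natural mating replicate 3 (0.53, below the minimum fold change).

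Arntl showed the widest range of the 5 genes. In WT natural mating its log2 value was 6.01, 5.94 and 6.38 in replicates 1 to 3, and in WT IVF it was 8.42, 8.14 and 8.45. It was 6.76, 6.45 and 7.17 in Atf7-/- natural mating and 8.36, 8.46 and 8.53 in Atf7-/- IVF. The IVF arrays of both genotypes were high, and those of natural mating were low without overlap. The mean was 2.23 higher on the log2 scale (SE 0.18), or 4.7-fold, with IVF in WT mice. In Atf7-/- mice the IVF difference was 1.66 (SE 0.18), or 3.16-fold. Arntl and Cry1 are named in the article for both genotypes, so this difference too is a description for these 2 genes. In order of the means, Atf7-/- IVF and WT IVF overlapped, Atf7-/- natural mating lay below both, and WT natural mating lay lowest, each without overlap.

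**Figure D1:**
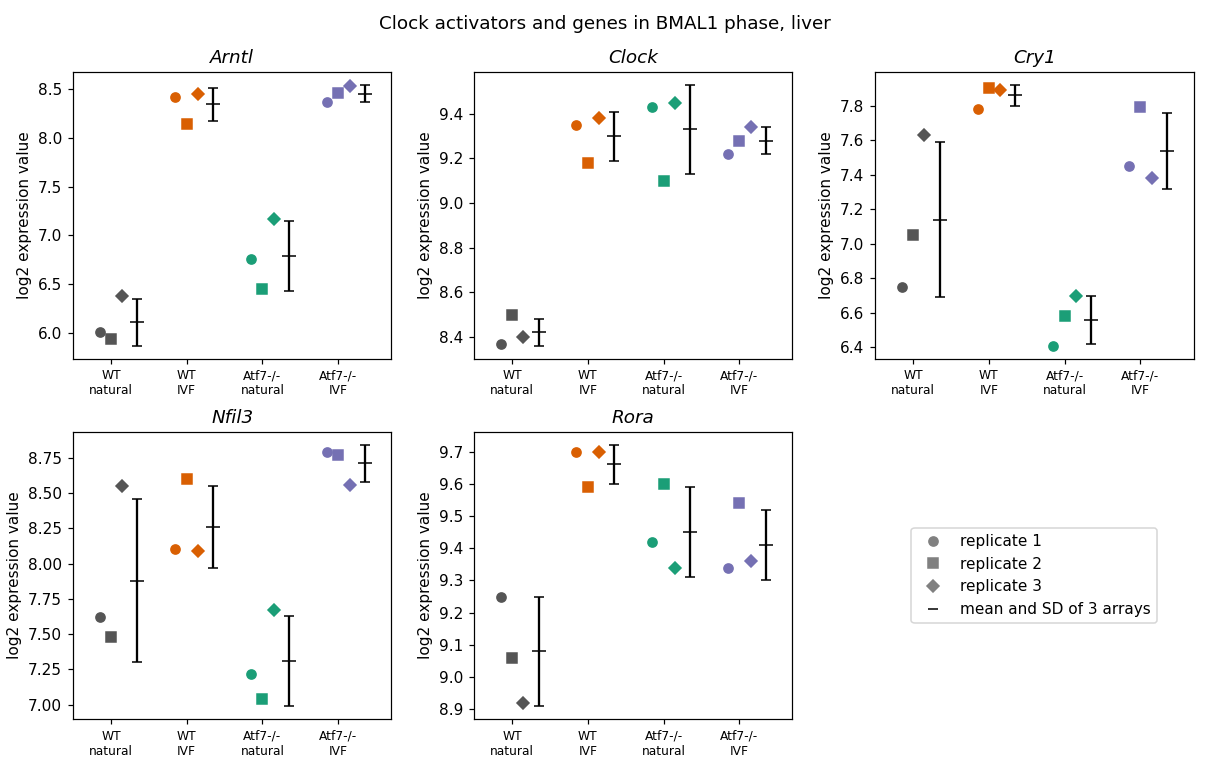
Log2 expression values (vertical axes, a separate range for each gene) of the 5 measured genes in the 4 groups of 3 mice, with each symbol 1 array and black marks the mean and SD. For Arntl both IVF groups lie above both natural mating groups, from 8.14 upwards, while for Clock only the WT natural mating arrays are low, at 8.37 to 8.5.

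Clock, which encodes the partner of BMAL1, had another pattern. Its log2 value was 8.37, 8.5 and 8.4 in WT natural mating and 9.35, 9.18 and 9.38 in WT IVF. It was 9.43, 9.1 and 9.45 in Atf7-/- natural mating and 9.22, 9.28 and 9.34 in Atf7-/- IVF. The WT natural mating arrays stood below the other 9 arrays, and the remaining groups overlapped in each neighbouring pair of the order. The mean was 0.88 higher (SE 0.11) with IVF in WT mice, whereas IVF in Atf7-/- mice gave -0.05 (SE 0.11, limma adjusted p = 0.843), with a 95% interval of -0.28 to 0.19.

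Rora had its lowest values in the same group. In WT natural mating the log2 value was 9.25, 9.06 and 8.92, against 9.7, 9.59 and 9.7 in WT IVF. In Atf7-/- mice it was 9.42, 9.6 and 9.34 after natural mating and 9.34, 9.54 and 9.36 after IVF. Every WT natural mating array was below every array of the other groups, although the distance to the nearest one was small. The WT IVF mean was 0.58 higher (SE 0.11) than that of WT natural mating, and IVF in Atf7-/- mice gave -0.04 (SE 0.11, limma adjusted p = 0.88), with a 95% interval of -0.28 to 0.20.

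Cry1, which encodes a repressor of BMAL1 and CLOCK, was lowest in Atf7-/- natural mating. Its log2 value there was 6.41, 6.58 and 6.7, against 7.45, 7.79 and 7.38 in Atf7-/- IVF. In WT mice it was 6.75, 7.05 and 7.63 after natural mating and 7.78, 7.9 and 7.89 after IVF. The IVF arrays were above the natural mating arrays of the same genotype in both cases, but WT natural mating replicate 3 reached into the range of Atf7-/- IVF. The IVF difference was 0.71 (SE 0.19) in WT mice and 0.98 (SE 0.19), or 1.97-fold, in Atf7-/- mice.

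Nfil3, the D-box repressor, had a log2 value of 7.22, 7.04 and 7.67 in Atf7-/- natural mating and 8.79, 8.77 and 8.56 in Atf7-/- IVF. The groups did not overlap, and Nfil3 rose by 1.40 (SE 0.27, limma adjusted p = 0.00606), or 2.63-fold, with IVF in Atf7-/- mice. In WT mice it had 7.62, 7.48 and 8.55 after natural mating and 8.1, 8.6 and 8.09 after IVF. Here the arrays overlapped, because replicate 3 of WT natural mating stood with the IVF arrays, and the difference of 0.38 (SE 0.27) became 0.71 without that array. In order of the means, Atf7-/- IVF came first, then WT IVF, WT natural mating and Atf7-/- natural mating, and each neighbouring pair overlapped. In natural mating, Atf7-/- was higher than WT for Arntl. For Nfil3 it was lower in mean, with overlapping arrays (-0.57, 95% interval -1.16 to 0.01).

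Of the 5 genes, 4 had WT IVF arrays wholly above the WT natural mating arrays, the exception being Nfil3. Over all probe sets, 14% lay wholly higher with IVF in WT mice and 15.4% wholly lower. Because this contrast chose the members, nothing is read from that count. With IVF in Atf7-/- mice, 3 of 5 genes, Arntl, Cry1 and Nfil3, were called higher and 0 lower, against 3.27% of all probe sets called higher and 3.51% called lower. Calls were made where the limma p, adjusted over all probe sets, did not exceed 0.05 and the groups differed by 0.6 or more on the log2 scale in either direction. Among the 3 genes that the article does not name for this contrast, Nfil3 was called, and Clock and Rora were not. All 3 calls were kept with each of the 12 arrays left out in turn.

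**Figure D2:**
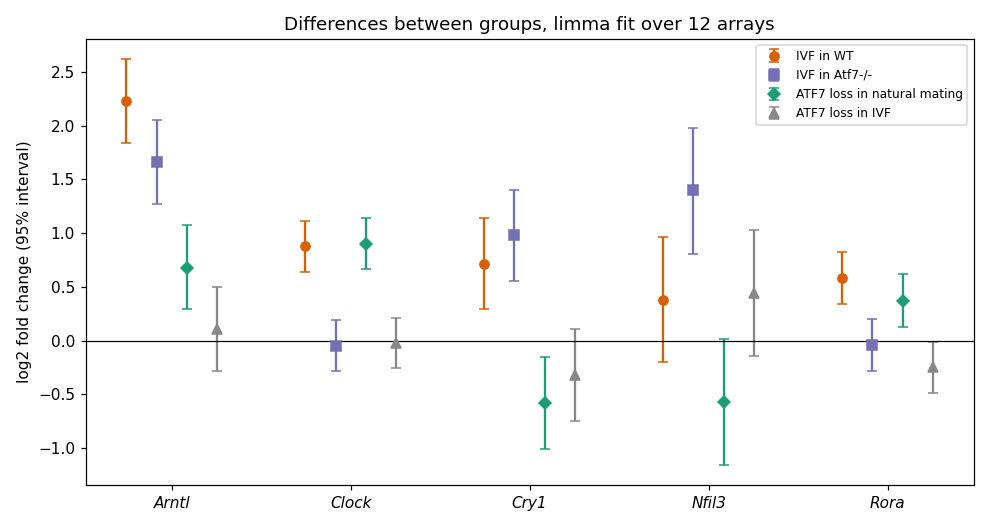
Log2 fold changes (vertical axis) with 95% intervals of the 5 genes in 4 comparisons from a limma fit over 12 arrays, where IVF is compared with natural mating within a genotype and ATF7 loss compares Atf7-/- with WT mice conceived in the same way. For Clock and Rora the estimates for IVF in Atf7-/- mice are near 0 (-0.05 and -0.04), while for Nfil3 the estimate there is 1.40.

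ATF7 loss was compared in mice from natural mating. This comparison shares the WT natural mating arrays with the one that chose the members, and its p-values are not independent of the choice. Clock rose by 0.90 (SE 0.11, adjusted p = 0.000405), or 1.87-fold, and Arntl by 0.68 (SE 0.18, adjusted p = 0.0272). These 2 of 5 genes were called higher, against 3.83% of all probe sets, and 0 were called lower, against 3.67%. Rora had 0.37 (SE 0.11, adjusted p = 0.0437), under the minimum fold change. Cry1 had -0.58 (SE 0.19, adjusted p = 0.0745) and Nfil3 -0.57 (SE 0.27, adjusted p = 0.198), so these estimates were opposite in sign to those of Clock and Arntl. The call of Arntl ended without Atf7-/- natural mating replicates 1 or 3 or WT natural mating replicates 1 or 2 (adjusted p from 0.067 to 0.0958). Cry1 was called lower without WT natural mating replicate 1 (-0.78, adjusted p = 0.0221). Depending on the array left out, its estimate shrank to as little as -0.34 (adjusted p up to 0.208). That of Nfil3 ran from -0.78 to -0.24 (adjusted p from 0.115 to 0.518). In WT natural mating, replicate 3 had the highest value of both genes (7.63 for Cry1 and 8.55 for Nfil3).

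Between genotypes among IVF mice, 0 of 5 genes were called by limma, and 1, Rora, had an unadjusted p under 0.05. Of all probe sets 0.00575% were called in either direction. The estimates for Atf7-/- IVF minus WT IVF were 0.11 (95% interval -0.28 to 0.50) for Arntl, -0.02 (-0.26 to 0.21) for Clock, -0.32 (-0.75 to 0.11) for Cry1, 0.44 (-0.14 to 1.03) for Nfil3 and -0.25 (-0.49 to -0.01) for Rora. The intervals of Cry1 and Nfil3 thus reach past the minimum fold change of 0.6, and those of the other 3 do not.

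The IVF effect in Atf7-/- mice minus that in WT mice was tested directly as an interaction. It contains the contrast that chose the members and is likewise not independent of the choice. Clock had -0.93 (SE 0.15, adjusted p = 0.00566) and Rora -0.62 (SE 0.15, adjusted p = 0.0355), and these 2 of 5 genes were called lower, against 3.46% of all probe sets, while 2.72% were called higher. Arntl had -0.57 (SE 0.25, adjusted p = 0.211), Cry1 0.26 (SE 0.27, adjusted p = 0.64) and Nfil3 1.02 (SE 0.37, adjusted p = 0.137), none of which was called. The call of Clock was kept without each array in turn. That of Rora was kept without Atf7-/- natural mating replicate 3, Atf7-/- IVF replicate 2 or WT natural mating replicate 1 and ended without any of the other 9 arrays (estimates from -0.66 to -0.54, adjusted p from 0.0549 to 0.0822).

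The 5 genes therefore did not move as 1 set. Over the 12 arrays, Cry1 and Nfil3 had a Pearson's r of 0.83, and Clock and Rora one of 0.74. Arntl had 0.73 with Clock, 0.70 with Cry1, 0.69 with Nfil3 and 0.63 with Rora. Across these sides, Clock had 0.11 with both Cry1 and Nfil3, and Rora had 0.25 with Cry1 and -0.01 with Nfil3. These values describe 12 arrays in 4 groups of shared conditions and carry no p.

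Deviations of each array from the mean of its group showed how mice of the same group differed. Among 65 pairs of a measured member with another clock gene, the pairs named here were chosen after their values were seen. Cry1 deviated together with Nfil3 (r = 0.75) and against Nr1d2, a REV-ERB repressor gene (r = -0.82). Without the 2 arrays farthest from the median of Cry1 these were 0.49 and -0.85. In WT natural mating, replicate 3 had the highest Arntl, Cry1 and Nfil3 values and the lowest Rora value, and its values of Nr1d1 (9.63), Nr1d2 (9.75) and Dbp (9.69) were the lowest of that group. Other genes of the opposite phase did not follow, since its Per2 (9.33) and Bhlhe40 (9.54) values were the highest of that group, and Cry1 and Per2 had a within-group r of 0.61 (-0.12 without the 2 farthest arrays). Replicate 3 of WT natural mating also stood apart beyond the clock genes. Its Cd36 value was 8.57, against 10.25 and 10.13 in replicates 1 and 2, and its Marco value was 8.02, against 6.41 and 7.24. In Atf7-/- natural mating, replicate 3 likewise had the highest Arntl, Clock, Cry1 and Nfil3 values and the lowest Nr1d1 (10.49), Nr1d2 (9.06) and Dbp (9.0) values. Rora deviated against Arntl (r = -0.53, and -0.24 without the 2 farthest arrays). Clock and Rora, alike over the 12 arrays, were not alike within groups (r = -0.37), while Clock deviated together with Arntl (r = 0.67). Without the 2 arrays farthest from the median of Clock these were -0.27 and 0.33.

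**Figure D3:**
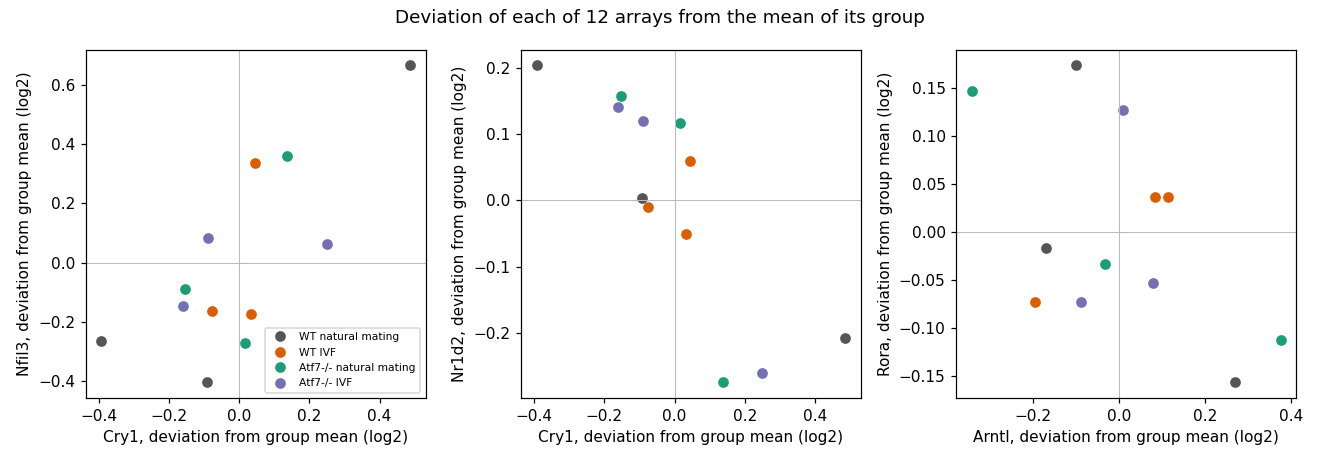
Deviations of log2 values from the group mean for 3 pairs of genes, with each point 1 of 12 arrays, coloured by group. Arrays high in Cry1 for their group tend to be high in Nfil3 (r = 0.75) and low in Nr1d2 (r = -0.82), and arrays high in Arntl tend to be low in Rora (r = -0.53).

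By Pearson's r over the 12 arrays, the genes most like Arntl were the mitochondrial ribosomal protein gene Mrpl23 (0.984), the DNA methyltransferase gene Dnmt3b (0.965), Atp5md (0.964), the anticoagulant gene Pros1 (0.962) and Lmbrd2 (0.962). The most opposed were the kinase gene Plk3, Rsad1 and the D-aspartate oxidase gene Ddo, each with -0.965. None of these is a core clock gene, while Dbp had -0.96 and Ciart -0.95. Most like Clock were Tab2 (0.978) and Prkar2a (0.975), a regulatory subunit of protein kinase A. Cry1 was most like Cnbp (0.966) and Slirp (0.964), Nfil3 most like the transferrin receptor gene Tfrc (0.956) and Dock4 (0.948), and Rora most like Trappc3 (0.950) and Snx4 (0.931). With 4 groups, many genes can share such a pattern.

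Of 14 clock genes in the opposite phase, which are mainly targets of BMAL1 and CLOCK, 7 fell and 0 rose with IVF in Atf7-/- mice, with a median log2 fold change of -0.59 against 0.0057 over all probe sets, of which 3.51% were called lower. This list, like the members, was chosen with earlier results of these arrays known. Leaving out 1 array gave 6 to 9 called lower and 0 higher with IVF in Atf7-/- mice. Hlf (-0.61, SE 0.11, adjusted p = 0.00438) came under the minimum fold change without Atf7-/- natural mating replicates 1 or 2 or Atf7-/- IVF replicates 2 or 3. The period gene Per1 had -1.99 (SE 0.14, adjusted p = 7.43e-05), Nr1d1 -1.69 (SE 0.28, adjusted p = 0.00305) and Dbp -1.96 (SE 0.33, adjusted p = 0.00325). In the same comparison Per3 had -0.49 (SE 0.22, adjusted p = 0.192), Nr1d2 -0.22 (SE 0.15, adjusted p = 0.407) and Tef -0.50 (SE 0.22, adjusted p = 0.173). With ATF7 loss in natural mating, 6 fell and 0 rose (median -0.42 against -0.019 over all probe sets, of which 3.67% were called lower), and they were Per2, Per3, Nr1d2, Tef, Ciart and Usp2. The 6 became 3 without Atf7-/- natural mating replicate 3 or WT natural mating replicate 2. Per3 there had -1.77 (SE 0.22, adjusted p = 0.000578), and Nr1d1 had 0.73 (SE 0.28, adjusted p = 0.118) and Per1 0.16 (SE 0.14, adjusted p = 0.52). These genes too thus differed among themselves, and over the 12 arrays Per3 ran opposite to Clock (r = -0.93) and Nr1d1 opposite to Cry1 (r = -0.93).

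The interaction was called in 4 of the 14, positive for Per2 (0.91, SE 0.20, adjusted p = 0.0239) and Per3 (1.83, SE 0.32, adjusted p = 0.00714) and negative for Per1 (-0.81, SE 0.20, adjusted p = 0.0319) and the BMAL1 target and repressor gene Bhlhe40 (-1.92, SE 0.38, adjusted p = 0.0132), where 2.72% of all probe sets were called higher and 3.46% lower. With an array left out, 1 to 5 genes were called positive and 1 to 3 negative, the call of Per1 ending without any of 8 arrays and that of Per2 without any of 5. Between the genotypes of IVF mice 0 of 14 were called by limma (3 at an unadjusted p under 0.05). With IVF in WT mice, the contrast that chose the members, the median was -1.09, and 10 passed the call lower and 0 higher, beside 1.67% and 2.85% of all probe sets. Nothing is read from that count either. The comparisons within a genotype and between genotypes share arrays, so their values are not independent of each other.

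**Figure D4:**
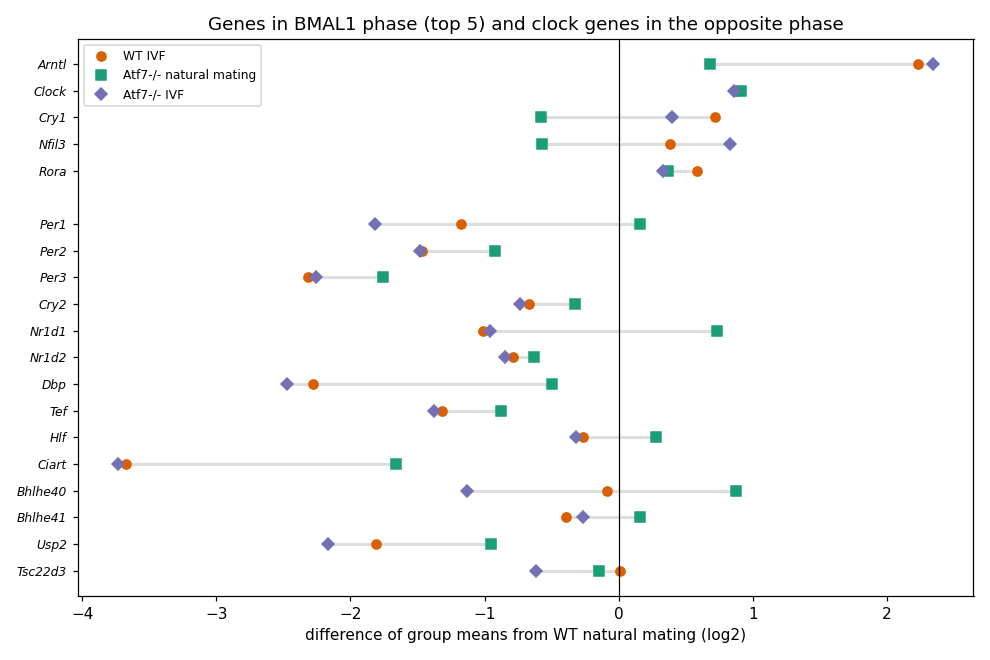
Differences of group means from WT natural mating (log2, horizontal axis) for the 5 measured genes in BMAL1 phase (top) and 14 clock genes in the opposite phase, with symbols for the other 3 groups. The Atf7-/- natural mating symbols lie beside the IVF symbols for Clock and Rora but on the other side of 0 for Cry1, Nfil3 and Nr1d1.

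Other genes around the loop were read from lists. Of 3 measured activator genes (Arntl, Clock and the Arntl relative Arntl2), Arntl2 was not called in any comparison, with -0.13 (SE 0.10, adjusted p = 0.494) for IVF in Atf7-/- mice. Of 4 measured ROR and REV-ERB receptor genes, Nr1d1 fell with IVF in Atf7-/- mice and Nr1d2 with ATF7 loss (-0.62, SE 0.15, adjusted p = 0.0196), and Rorb, an isoform gene of brain and retina, had 0 (SE 0.09) with IVF in Atf7-/- mice. The other measured genes listed as in BMAL1 phase were E2f8, a repressor of the E2F family, and the glycogen synthase gene Gys2. E2f8 rose by 1.43 (SE 0.26, adjusted p = 0.00464) with ATF7 loss and fell with IVF in Atf7-/- mice (-1.15, SE 0.26, adjusted p = 0.015), and Gys2 fell with IVF in Atf7-/- mice (-0.93, SE 0.19, adjusted p = 0.0081). Both thus went against Arntl with IVF in Atf7-/- mice. In WT mice Gys2 went against Arntl too (-1.11, SE 0.19), while E2f8 had 0.85 (SE 0.26). The phase under which they were listed was not measured, and Gys2 did not follow Arntl in either genotype. The fall of E2f8 was no longer called without replicate 3 of Atf7-/- natural mating (adjusted p = 0.0569) or of Atf7-/- IVF (adjusted p = 0.0665), nor that of Nr1d2 without Atf7-/- natural mating replicate 3 or WT natural mating replicates 1 or 2 (adjusted p from 0.055 to 0.0769).

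Of 19 measured modifiers of clock proteins and cofactors, 0 were called by limma with IVF in Atf7-/- mice (12 at an unadjusted p under 0.05). Some passed the adjusted p (from 0.00316 to 0.0461) and missed only the minimum fold change. Of these, Med1, Gsk3b, Ep300, Csnk1e, Ppargc1a and Csnk1d were lower with IVF (Med1 -0.55, SE 0.09) and Kdm5a was higher (0.54, SE 0.10). With ATF7 loss in natural mating, where 3.83% of all probe sets were called higher and 3.67% lower, 1 rose, the coactivator gene Ppargc1a (0.76, SE 0.15, adjusted p = 0.00731), and 2 fell, Nampt, which makes the NAD+ precursor that the deacetylase SIRT1 depends on (-0.95, SE 0.10, adjusted p = 0.000174), and the demethylase gene Kdm5a (-0.62, SE 0.10, adjusted p = 0.00234). Kdm5a came under the minimum fold change without Atf7-/- natural mating replicates 2 (-0.60) or 3 (-0.59) or WT natural mating replicate 1 (-0.57). Of 11 genes reported as RORα targets in liver, 3 fell and 1 rose with IVF in Atf7-/- mice, in which Rora itself had -0.04 and 3.51% of all probe sets were called lower and 3.27% higher. They were the phosphatidate phosphatase gene Lpin1 (-2.66, SE 0.22, adjusted p = 0.00012), the bile acid hydroxylase gene Cyp8b1 (-0.86, SE 0.23, adjusted p = 0.0294) and the lipid droplet gene Plin2 (-0.86, SE 0.15, adjusted p = 0.00405), while the estrogen sulfotransferase gene Sult1e1 rose by 1.74 (SE 0.46, adjusted p = 0.03). Sult1e1 had 5.69, 3.58 and 5.58 in Atf7-/- IVF and 3.06 to 3.38 in Atf7-/- natural mating, so that replicate 2 was near natural mating and the lower values were far below the array medians. Its difference was 2.42 (5.36-fold) without that replicate, and its call ended without any of the other 5 Atf7-/- arrays (adjusted p from 0.067 to 0.117). The call of Cyp8b1 ended without any Atf7-/- natural mating array or Atf7-/- IVF replicates 2 or 3 (adjusted p from 0.0568 to 0.106). With ATF7 loss in natural mating 2 of the 11 were called higher and 0 lower. They were Lpin1 (1.36, SE 0.22, adjusted p = 0.00251) and Cyp8b1 (0.93, SE 0.23, adjusted p = 0.0194). Cyp8b1 lost this call when Atf7-/- natural mating replicate 1 or WT natural mating replicates 2 or 3 were removed. Mean Lpin1 was 11.32 in Atf7-/- natural mating, 9.96 in WT natural mating, 9.57 in WT IVF and 8.66 in Atf7-/- IVF. In the interaction Lpin1 (-2.26, SE 0.31), Plin2 (-0.83, SE 0.21) and Apoc3 (-0.67, SE 0.15) were called lower. Leaving out single arrays ended the interaction calls of Plin2 and Apoc3. Of 4 genes reported to be repressed by NFIL3, 1, Per1, was called lower with IVF in Atf7-/- mice and 0 higher. Of all probe sets 3.51% were called lower and 3.27% higher there. Per1 is also among the opposite-phase genes. The others had 1.18 (Cyp7a1, SE 0.57, adjusted p = 0.224), -0.57 (Per2) and -0.79 (Fgf21). The interaction of Cyp7a1 was called at 3.43 (SE 0.81, adjusted p = 0.0292), and leaving out single arrays ended that call.

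Markers of other liver cells moved with some of these values. For 7 stellate cell markers, the mean log2 value ranged from 8.2 to 8.57 in WT natural mating, from 8.69 to 8.99 in WT IVF, and in Atf7-/- mice from 8.63 to 8.9 after natural mating and from 8.82 to 8.87 after IVF, so that WT natural mating was the lowest group, as for Clock and Rora. For 4 cholangiocyte markers the mean was between 6.19 and 6.24 in WT natural mating, below the other groups (from 6.39 upwards). Of these, Krt19 alone was called higher with ATF7 loss in natural mating (0.6, SE 0.09, adjusted p = 0.00123). The other cholangiocyte markers had 0.13 to 0.17, and the call of Krt19 ended without replicate 2 of either natural mating group. Among the stellate cell markers only Pdgfrb was called there (0.89, SE 0.13, adjusted p = 0.00115), the others having -0.04 to 0.56. The mean of 7 Kupffer cell markers overlapped between WT natural mating (9.01 to 9.78) and WT IVF (9.05 to 9.18), but Atf7-/- natural mating (8.77 to 9) lay wholly below WT natural mating, and Atf7-/- IVF had 8.97 to 9.21. With ATF7 loss in natural mating, where Clock and Arntl were called, 3 Kupffer markers fell (Clec4f, Cd5l and Marco) and 1 rose (Vsig4), the call of Marco ending without any of 10 arrays and that of Vsig4 without replicate 3 of either group. Of all probe sets 3.67% were called lower and 3.83% higher in that comparison. For 8 markers of T, NK and B cells the mean was 5.49 to 5.96 in WT natural mating, 5.83 to 5.86 in WT IVF, 5.64 to 5.68 in Atf7-/- natural mating and 5.78 to 5.9 in Atf7-/- IVF, and Cd3g (0.74) and Ms4a1 (0.71) were called higher with IVF in Atf7-/- mice, each with 4 single arrays whose loss ended the call. Of all probe sets 3.27% were called higher with IVF in Atf7-/- mice. The other lymphocyte markers had -0.30 (Cd3e), -0.14 (Cd8a), 0.01 (Cd4), 0.09 (Cd79a) and 0.19 (Ncr1 and Nkg7) in that comparison, so they did not move as a set. For 6 sinusoidal endothelial markers WT natural mating (from 9 to 9.25) was again the lowest group in mean, next to 9.23 as the lowest array elsewhere. Only Clec4g of these was called with ATF7 loss in natural mating (higher by 1, SE 0.17, adjusted p = 0.00283). Lyve1 had 0.58 there, Fcgr2b 0.09, Kdr 0.05, Stab2 0.04 and Pecam1 -0.06, so the endothelial markers did not move as a set. The part of these cells in the values of Clock, Rora, Arntl and the other members was not tested, and in whole liver fewer cells of a type and less RNA per cell cannot be told apart. Transcripts of both phases of the clock differed between the groups, and with no hour of dissection stated, the effects of group and of a difference in hour cannot be told apart.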

How the data were processed

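Livers of 12 male mice were measured on 12 arrays, 3 in each of 4 groups, which were assigned from the sample titles. The authors normalized the scans by RMA in affy and deposited log2 values for 34760 probe sets, which were used unchanged. For the package version, filters and build of the annotation, the answer is "not given in the sources used here". Of the probe sets 21640 carry 1 gene symbol, 1321 several and 11799 none, and a gene was read from its brightest 1-symbol probe set.

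The 4 group means were estimated over all arrays by limma 3.58.1 under R 4.3.3 (8 residual degrees of freedom), with empirical Bayes variances and Benjamini-Hochberg adjustment over all probe sets. The thresholds for a call, 0.05 on the adjusted p and 0.6 on the size of the log2 fold change, are those of the study. The step was tested on simulated data first. The number of arrays limits the precision.

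The members and the gene lists were chosen with earlier results of these data known. The rule set for naming genes beyond the members was a call, a place among the core clock genes or a correlation with a member. It was not followed throughout, since some called genes of the lists are left out. Some genes without a call, such as Cd36 and Med1, are named. Alternatives were a fit of the groups compared only, the replicate block, array weights, robust variances with an intensity trend, a further quantile normalization, median centring, bright or 1-symbol probe sets only, the mean of a gene's probe sets, other thresholds and each array left out. Promoter sequences came from RefSeq (GRCm38.p6) and were used for letters alone. Figures were drawn with matplotlib 3.10.9 in Python 3.11.15.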

Additional observations from a re-analysis of the deposited data

Results flagged for a closer look

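For 2 of the 5 measured genes the interaction term of the limma fit, the difference in the effect of IVF between the genotypes, passed the threshold. It contains the WT contrast that chose the members, so these are differences in values already selected on. For Clock the effect in Atf7-/- mice minus that in WT mice was -0.93 (SE 0.15), with 8.42 and 9.30 as the WT means and 9.33 and 9.28 as the Atf7-/- means of natural mating and IVF. For Rora it was -0.62 (SE 0.15), with means of 9.08 and 9.66 in WT and 9.45 and 9.41 in Atf7-/- mice. The call of Clock was kept without each array in turn, and that of Rora ended without any of 9 of the 12 arrays, with array weights and with a further quantile normalization.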

How the results depend on the processing

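Of the fitted differences of single members, in the comparisons other than IVF in WT mice, 392 of 415 values under the alternatives kept their direction and their side of the threshold. The count of members called with IVF in Atf7-/- mice was 3, and between the genotypes of IVF mice 0, with each array left out in turn. With ATF7 loss in natural mating 1 member was called in place of 2 when only the groups compared were fitted (Arntl adjusted p = 0.0933) or when the adjusted p had to be at most 0.01, and 1 to 2 with an array left out. For the interaction 1 was called in place of 2 with array weights (Rora -0.58, adjusted p = 0.0309, under the minimum fold change), with a further quantile normalization (Rora -0.51, adjusted p = 0.0623) and with the adjusted p held to 0.01, and 1 to 2 with an array left out. Estimates near 0 changed sign. Between the genotypes of IVF mice Clock had 0.02 after a further quantile normalization, and -0.08 to 0.01 with an array left out (0.01 without Atf7-/- IVF replicate 1 or WT IVF replicate 3). With IVF in Atf7-/- mice and an array left out, Clock had -0.16 to 0.01 (0 without Atf7-/- natural mating replicate 1 and 0.01 without replicate 3) and Rora -0.1 to 0.04 (0.04 without Atf7-/- natural mating replicate 2). The cause of these changes was not tested.

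Arrays with the same replicate number deviated together with r of -0.124 to 0.239, over 0.1 in 3 of 18 pairs, so the numbers were not taken as pairs. With the replicate block the counts of members called were 3 for IVF in Atf7-/- mice, 2 for ATF7 loss in natural mating and 2 for the interaction, and 1 opposite-phase gene in place of 2 was called lower in the interaction.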
